A study of Mus musculus with 19 samples.

Results

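Voltage-gated and potassium channel subunits were followed in sorted nasal epithelial cells of naive mice. The set holds every row of the authors' normalized gene table whose symbol begins with Cacna1, Cacna2d, Cacnb, Cacng, Kcn or Hcn, or is Scn with a number and the letter a or b. This gave 142 of 26221 rows. Measured levels played no part in the choice. By symbol, 10 rows were sodium channel pores, 4 sodium beta subunits, 10 calcium channel pores, 4 calcium alpha2delta, 4 calcium beta and 8 calcium gamma subunits, and 4 were HCN channels. Among the potassium channel rows were 40 voltage-gated pores, 12 of their partners, 15 inward rectifiers, 14 two-pore channels and 12 calcium- or sodium-activated channels with their partners. The other 5 rows carry the prefix without being channels, among them the long non-coding RNA Kcnq1ot1.

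All 19 libraries came from 1 transgenic mouse strain (B6.Cg background, founder line 2Mik/J), in which the BAC RP23-268L19 with the Chat locus drives enhanced green fluorescent protein (eGFP), so the eGFP-negative cells carry the transgene as well. Digested nasal epithelium was sorted into CD45-negative, EpCAM-positive cells. The eGFP-positive cells, which the labels name brush cells, were split by scatter into FSClow (9 libraries) and FSChi (5 libraries), and the eGFP-negative cells made up the EpCAM group (5 libraries). Age is not given in the labels, and no label says that replicates are different mice. The p-values therefore rest on library-to-library spread, which may be technical. In bulk libraries, fewer cells of a type and less RNA per cell cannot be told apart.

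Voltage-gated channels open when the membrane potential changes. Sodium channels of the Scn family carry the upstroke of the action potential in neurons, and their beta subunits set gating and surface density. Calcium channels are built of a Cacna1 pore with a beta and an alpha2delta subunit, and admit calcium that triggers release of transmitter. Potassium channels bring the membrane back towards rest: voltage-gated members do so after depolarization, inward rectifiers and two-pore channels hold the resting potential, and calcium-activated members respond to calcium inside the cell. Brush cells, also called tuft cells, are chemosensory epithelial cells whose taste-like signalling releases calcium from stores and opens the cation channel Trpm5.

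The potassium channel genes that were higher in both eGFP-positive gates come from different subfamilies. A feature common to all potassium channel pores can be read in their coding sequence. Every potassium channel pore carries a selectivity filter, a short stretch that lets potassium through and holds sodium back. The coding sequences were searched in frame for 5 codons of the form ACN, a codon of a branched aliphatic residue, GGN, a tyrosine, phenylalanine or leucine codon, and GGN. Each line gives the strand of the gene, with these 15 bases in capitals and 15 bases of coding sequence on each side, from GRCm38 with the GENCODE M21 annotation. All 8 protein-coding members searched held 1 match, and the non-coding Kcnq1ot1 held none. Since every pore has a filter, these matches do not set the 8 apart from other potassium channel genes, which were not searched. A filter with other residues in these places would be missed, so 1 match does not mean that a gene codes for 1 filter only. The lines show 6 of them, at least 1 from each potassium channel subfamily with such members.
Kcnq1: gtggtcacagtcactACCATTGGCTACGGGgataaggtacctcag
Kcns3: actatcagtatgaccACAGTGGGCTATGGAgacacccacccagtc
Kcnj4: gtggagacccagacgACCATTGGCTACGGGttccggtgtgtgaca
Kcnj11: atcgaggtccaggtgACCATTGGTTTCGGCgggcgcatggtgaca
Kcnk1: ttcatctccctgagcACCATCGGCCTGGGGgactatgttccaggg
Kcnn4: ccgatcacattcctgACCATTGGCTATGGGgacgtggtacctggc
On the forward strand lie the stretches of Kcnq1 (chr7:143184540-143191461), Kcnk1 (chr8:126025314-126025358) and Kcnn4 (chr7:24379183-24379227). On the reverse strand lie those of Kcns3 (chr12:11091560-11091604), Kcnj4 (chr15:79485352-79485396) and Kcnj11 (chr7:46099481-46099525). The stretch of Kcnq1 is split by an intron, so its genomic span is longer than 45 bases.

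FSChi replicate 2 had the fewest counts, 1348428, and FSChi replicate 3 the most, 7477695. All 13 tuft and brush cell markers rose in both eGFP-positive gates against EpCAM, and their summed level was 8354 to 9772 CPM, which are read counts scaled to a common library size, in FSClow, 7459 to 12810 CPM in FSChi and 11.98 to 30.1 CPM in EpCAM. The summed level of 14 olfactory sensory neuron markers was 89.99 to 306.4 CPM in FSClow and 4302 to 7220 CPM in EpCAM. Among the FSChi libraries it was 4158, 243.5, 1699, 3730 and 2103 CPM in replicates 1 to 5, so replicate 2 stood apart and lay within the FSClow range. Gng13, the 1 of these 14 markers higher in FSChi than in EpCAM, averaged 83.5 CPM in FSClow, 253.7 in FSChi and 57.9 in EpCAM. It was at 139.1 CPM or more in every FSChi library, so low sums, as in replicate 2, rest largely on it. Replicate 2 held no count for 24 of the 57 channel genes tested, against 0 to 2 of 57 in the other FSChi libraries, and 3 counts correspond to 2.41 CPM in it. Markers of ionocyte and microvillar cells summed to 408.1 and 940.0 CPM in FSChi replicates 3 and 4, against 13.1 to 33.2 CPM in the other FSChi libraries. Leukocyte markers summed to 197.3 and 596.6 CPM in the same 2 libraries, against 8.15 to 19.8 CPM. Nearly all of this was Lyz2, at up to 593.8 CPM in FSChi, while Ptprc, which encodes the CD45 used to gate leukocytes out, was at most 18.01 CPM there and Cd3e was at 0 in every library. Columns 3 and 4 of FSChi in the count table matched the single-library files numbered 4 and 5, column 5 matched none closely (best Pearson r across genes 0.925), and EpCAM 1 and 2 were swapped. All these mismatches lie within a group.

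Of the 142 channel genes, 57 passed the filter on low counts and were tested, 85 did not, and 6 of those 85 had no count in any library. A mean of at least 1 CPM was reached by 35 members in FSClow, 63 in FSChi and 74 in EpCAM. At least 10 CPM was reached by 15, 27 and 34 members. The members just outside the filter reached at most 6.83 CPM, the mean of Kcnh6, a voltage-gated potassium channel, in EpCAM. In FSClow against EpCAM, 14 tested members were higher, where 22.0% of all tested genes were higher, and 34 were lower, where 23.1% of all tested genes were lower. These are 24.6% and 59.6% of the 57. The median log2 fold change was -3.46 over the tested members and 0.05 over all 13340 tested genes. In FSChi against EpCAM, 14 members were higher and 19 lower, against a background of 13.5% higher and 12.2% lower, and the medians were -0.83 and -0.02. In FSChi against FSClow, 30 members were higher and 5 lower, against 15.5% and 9.30% of all tested genes, and the medians were 1.70 and -0.01. When only the libraries of these 2 gates were fitted, 30 members passed the filter, and 10 of them were higher and 4 lower. That fit called 2106 of 11556 genes in either direction, against 3310 of 13340 in the main fit. The 2 members without a count in FSClow, Kcng1 and Kcna5, leave the medians above as they are when set to their lower bounds. With only the libraries whose column matched its own file, which leaves FSChi replicates 1 and 2, FSChi counted 9 higher and 6 lower against EpCAM and 24 higher and 3 lower against FSClow. Of all 14193 genes tested there, 1838 and 1754 were called in either direction. Without FSChi replicate 2 the counts were 12 higher and 16 lower for FSChi against EpCAM, and 37 higher and 3 lower for FSChi against FSClow. Of all 13807 genes tested without it, 2989 and 3409 were called in either direction. Counts by subfamily below are to be read against the main shares of all tested genes given here.

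**Figure D1:**
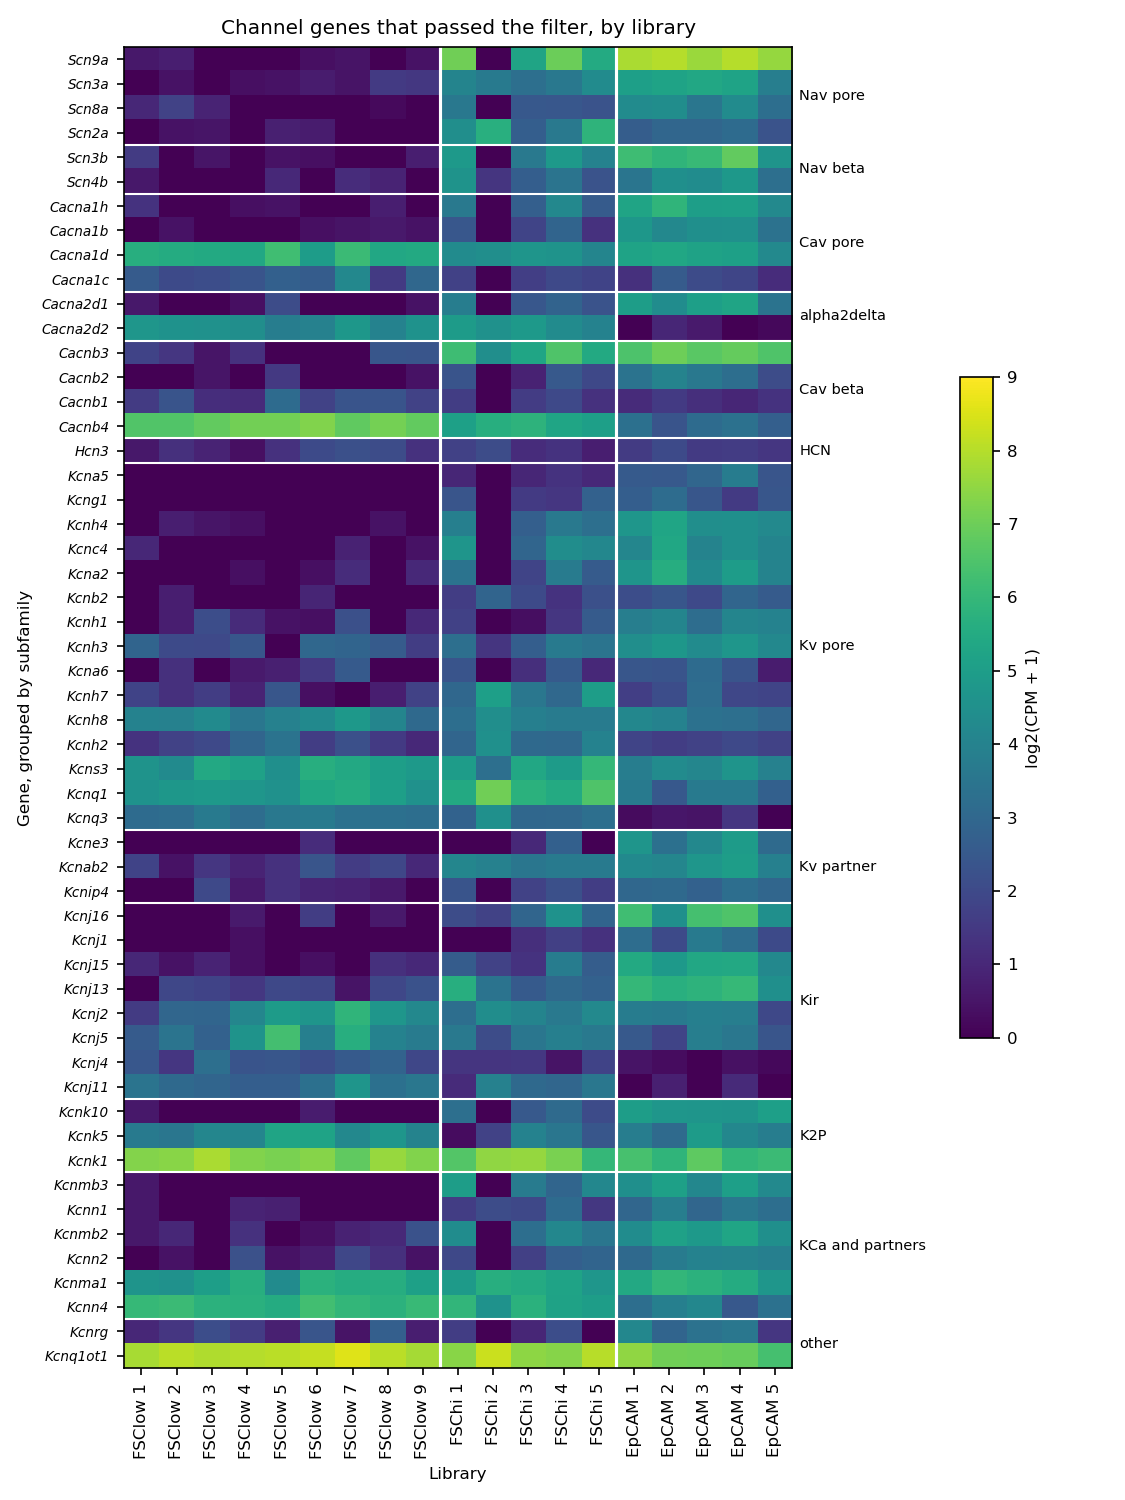
Levels of 54 of the 57 tested channel genes in each of the 19 libraries, as log2(CPM + 1) in colour, with genes in rows by subfamily and libraries in columns. White lines separate groups and subfamilies. The sodium channel rows are dark in FSClow and bright in EpCAM, and FSChi replicate 2 is dark in 24 rows where it held no count.

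Sodium channel pores were low in FSClow: all 5 tested pores were lower there than in EpCAM, against 23.1% of all tested genes. Of the 5, 4 were higher in FSChi than in FSClow, against 15.5% of all tested genes. Scn9a, Scn2a, Scn3a and Scn8a were near 0 in FSClow, so they passed the filter only through the other groups. A gene so low in FSClow can be tested only if it is higher elsewhere, so these counts are no separate support. Summed over all 10 pores, the level was 3.73 to 15.8 CPM in FSClow, 62.6 to 189.5 CPM in FSChi and 225.2 to 341.3 CPM in EpCAM. Scn9a, the pore Nav1.7 of pain-sensing and olfactory sensory neurons, lies at chr2:66480080-66635114 (GRCm38). Its level was 0 to 0.68 CPM in FSClow, with a median of 0.30 CPM. In EpCAM it was 228.3, 256.4, 201.8, 256.8 and 188.6 CPM. In FSChi it was 132.6, 0, 36.8, 124.1 and 43.9 CPM. The EpCAM libraries lay above all others, and within FSChi replicate 2 shared the zero of the FSClow libraries. Against EpCAM, Scn9a fell by 9.83 ± 0.76 on the log2 scale in FSClow (edgeR quasi-likelihood test, adjusted p = 1.5e-09), and FSChi exceeded FSClow by 8.11 ± 0.76 (adjusted p = 1.9e-07). In FSChi against EpCAM the log2 fold change was -1.72 ± 0.57 (adjusted p = 0.031), and it was -1.41 (adjusted p = 0.0053) without FSChi replicate 2. That call was lost without FSChi replicate 3 or 5 or EpCAM replicate 1, 2 or 4, at adjusted p of 0.075, 0.073, 0.052, 0.056 and 0.059. Among the FSChi libraries, replicates 1 and 4 were highest in both Scn9a and the olfactory neuron marker sum, and replicate 2 lowest in both. Their part in the Scn9a result was not tested.

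Scn2a, the pore Nav1.2 of central neurons, departed from Scn9a although both genes lie in 1 cluster on chromosome 2 (Scn2a at chr2:65620764-65767447). Its level was 20.9, 50.6, 5.38, 11.4 and 57.4 CPM in FSChi, 5.30, 6.89, 6.92, 7.95 and 3.92 CPM in EpCAM, and at most 0.72 CPM in FSClow, with a median of 0. FSChi replicates 2 and 5 were the highest, FSChi replicate 3 fell within the EpCAM range, and every FSClow library lay below all others. Scn2a was the only tested member called lower in FSClow and higher in FSChi against EpCAM. The log2 fold changes were -4.64 ± 0.66 (adjusted p = 2.8e-06) and 2.20 ± 0.55 (adjusted p = 0.0048), and FSChi exceeded FSClow by 6.84 ± 0.64 (adjusted p = 4.5e-08). Without FSChi replicate 2, the rise over EpCAM was 1.93 (adjusted p = 0.018). Replicate 2, where the olfactory neuron marker sum was lowest, thus held 50.6 CPM of Scn2a and no count of Scn9a.

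Scn3a, the pore Nav1.3 of developing neurons, reached 15.7, 12.05, 8.87, 11.01 and 19.1 CPM in FSChi, so all 5 FSChi libraries, replicate 2 included, lay above the highest FSClow library at 1.88 CPM. Its mean was 32.0 ± 10.8 CPM (SD, n = 5) in EpCAM. Scn8a, the main pore of mature axons, averaged 0.49 CPM in FSClow, 4.85 in FSChi and 15.6 in EpCAM, with no count in FSChi replicate 2. Of the 10 pores, 5 did not pass the filter. Of the 4 beta subunits, 2 were tested and both were lower in FSClow than in EpCAM and higher in FSChi than in FSClow. Both were near 0 in FSClow, so the limit set by the filter holds for them too. Scn3b, a beta subunit, was at 73.2, 58.7, 65.5, 112.7 and 23.9 CPM in EpCAM, at 27.5, 0, 11.6, 27.2 and 14.9 CPM in FSChi, and at 0 to 1.98 CPM in FSClow. The EpCAM and FSClow ranges lay apart. In FSChi, replicates 1 and 4 reached into the EpCAM range, replicates 3 and 5 lay between the ranges, and replicate 2 was at 0. The log2 fold change in FSClow against EpCAM was -7.52 ± 0.66 (adjusted p = 3.3e-09), and -8.21 without FSClow replicate 1. FSChi exceeded FSClow by 5.53 ± 0.68 (adjusted p = 2.9e-06), and by 6.23 without FSClow replicate 1.

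**Figure D2:**
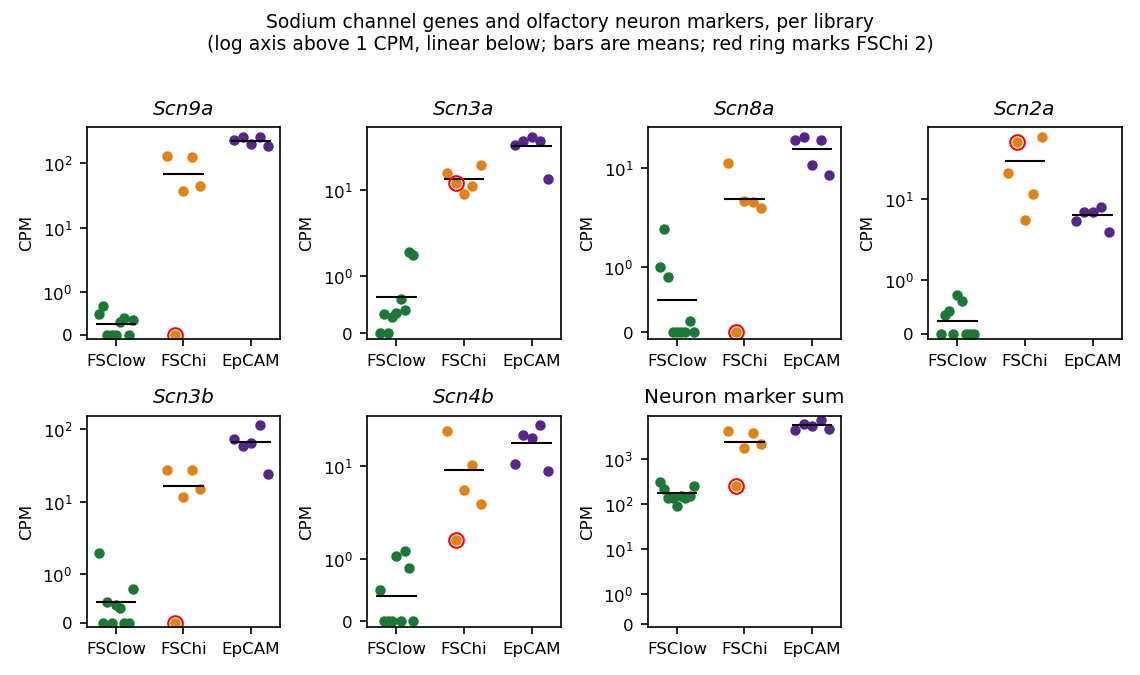
CPM of 6 tested sodium channel genes, and the summed CPM of 14 olfactory sensory neuron markers, in each library of FSClow, FSChi and EpCAM, on an axis that is logarithmic above 1 CPM and linear below. Points are libraries, bars are means, and the red ring marks FSChi replicate 2, which is at 0 for Scn9a, Scn8a and Scn3b but at 50.6 CPM for Scn2a.

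Of the 4 calcium channel beta subunits, all tested, 1 was higher and 2 were lower in FSClow than in EpCAM, while in FSChi 1 was higher and none was called lower. Cacnb4, a beta subunit that brings calcium channel pores to the membrane, lies at chr2:52428320-52676609. It was at 93.2 to 157.0 CPM in FSClow with a median of 112.8 CPM, at 33.6, 49.0, 56.0, 38.3 and 33.0 CPM in FSChi, and at 9.03, 4.04, 7.86, 9.19 and 5.57 CPM in EpCAM. The 3 groups did not overlap. Cacnb4 rose by 4.07 ± 0.24 on the log2 scale in FSClow (adjusted p = 4.5e-12) and by 2.54 ± 0.24 in FSChi (adjusted p = 2.0e-08), and FSChi was below FSClow with a log2 fold change of -1.52 ± 0.21 (adjusted p = 8.0e-06). Of its exon bases, 16.0% overlap the transcript A430018G15Rik on the other strand, and since counting is not stated to use strand, reads there cannot be told apart.

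Cacnb3, the beta subunit of many neuronal calcium channels, ran the other way. It was at 89.1, 128.6, 102.9, 116.4 and 90.5 CPM in EpCAM, at 72.2, 20.9, 38.0, 91.7 and 43.6 CPM in FSChi, and at 0 to 4.28 CPM in FSClow. FSClow lay below every other library, and FSChi replicate 4 reached into the EpCAM range. Cacnb3 fell by 5.89 ± 0.50 on the log2 scale in FSClow (adjusted p = 2.0e-09), and FSChi exceeded FSClow by 4.92 ± 0.49 (adjusted p = 2.0e-07). Summed over the 4 beta subunits, the level was 97.7 to 159.4 CPM in FSClow, 69.9 to 137.6 CPM in FSChi and 100.9 to 149.7 CPM in EpCAM, so these ranges overlapped while the members differed.

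Among alpha2delta subunits, which raise the surface density of calcium channels and bind gabapentin in the case of Cacna2d1 and Cacna2d2, the same contrast appeared. Cacna2d2 (chr9:107399733-107529346) was at 12.9 to 26.2 CPM in FSClow with a median of 22.6 CPM, at 29.9, 22.5, 27.7, 19.04 and 14.9 CPM in FSChi, and at 0, 0.95, 0.56, 0 and 0.15 CPM in EpCAM. Neither gate touched the EpCAM range, and the gates overlapped each other. Its log2 fold change was 5.95 ± 0.50 in FSClow (adjusted p = 1.1e-09) and 6.12 ± 0.52 in FSChi (adjusted p = 3.4e-09), and without EpCAM replicate 2 these were 6.65 and 6.82. Cacna2d1 averaged 0.48 CPM in FSClow, 5.57 in FSChi and 26.2 in EpCAM. Cacna2d1 fell by 5.77 ± 0.72 on the log2 scale in FSClow (adjusted p = 4.3e-07), and fell by 7.53 without FSClow replicate 5.

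Of the 4 calcium channel pores tested, 1 was higher and 2 were lower in FSClow. Cacna1d, the L-type pore Cav1.3 of pacemaking and hair cells, was at 30.2 to 74.9 CPM in FSClow with a median of 43.3 CPM, at 19.5, 20.9, 24.99, 23.7 and 16.3 CPM in FSChi, and at 35.9, 40.2, 35.2, 33.8 and 17.9 CPM in EpCAM. Every FSClow library lay above every FSChi library. FSChi was below FSClow with a log2 fold change of -1.20 ± 0.23 (adjusted p = 5.1e-04). The rise of FSClow over EpCAM, 0.58 ± 0.22 (adjusted p = 0.039), was lost without any 1 of 12 libraries, with adjusted p of 0.082 to 0.18: FSClow replicates 2, 4, 5 and 7, FSChi replicates 1, 3, 4 and 5, and EpCAM replicates 1, 3, 4 and 5. Cacna1b, the N-type pore of nerve endings, and Cacna1h, a T-type pore, had log2 fold changes of -6.15 ± 0.58 and -6.70 ± 0.63 in FSClow (adjusted p = 5.9e-09 and 6.3e-09). Both also fell in FSChi against EpCAM, with log2 fold changes of -2.55 ± 0.54 and -2.08 ± 0.56 (adjusted p = 0.0012 and 0.0080), and neither had a count in FSChi replicate 2. Cacna1c, the L-type pore of heart and smooth muscle, was at 5.83, 1.99 and 2.68 CPM on average and was called in no comparison. None of the 8 gamma subunits passed the filter, and Cacng4 averaged 1.53 CPM in FSClow. HCN channels, which carry the pacemaker current, were low throughout: Hcn3, the 1 tested member, averaged 1.75, 1.79 and 2.12 CPM in FSClow, FSChi and EpCAM.

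Voltage-gated potassium channels split by family. The Kcnq genes, whose channels open slowly near the resting potential, included members that rose in both eGFP-positive gates. Kcnq3, a subunit of the neuronal M-current (chr15:65986374-66286636), was at 7.93 to 11.8 CPM in FSClow with a median of 8.91 CPM, at 6.11, 21.7, 7.12, 7.28 and 8.86 CPM in FSChi, and at 0.20, 0.48, 0.37, 1.71 and 0 CPM in EpCAM. Both gates lay above EpCAM, and FSChi replicate 2 was the highest library. It rose by 4.0 ± 0.55 and 4.04 ± 0.58 on the log2 scale (adjusted p = 2.0e-06 and 1.4e-05), and without EpCAM replicate 4 by 5.04 and 5.11.

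Kcnq1, the Kv7.1 channel of heart and secretory epithelia (chr7:143106877-143427050), was at 22.2 to 45.1 CPM in FSClow with a median of 25.9 CPM. In FSChi it was at 43.7, 130.2, 52.1, 44.2 and 91.4 CPM, and in EpCAM at 11.98, 4.52, 11.98, 11.8 and 5.72 CPM. FSChi replicates 2 and 5 were the highest, and the lower FSChi libraries reached the top of the FSClow range. Kcnq1 rose over EpCAM by 1.68 ± 0.31 in FSClow and by 2.95 ± 0.35 in FSChi on the log2 scale (adjusted p = 9.4e-05 and 7.1e-07), and FSChi exceeded FSClow by 1.27 ± 0.28 (adjusted p = 0.0015). Without FSChi replicate 2 the difference between the gates was 0.96 (adjusted p = 0.012). Kcnq1ot1, the non-coding transcript read from the opposite strand within Kcnq1, averaged 268.9 ± 47.8 CPM in FSClow (SD, n = 9), compared with 216.0 ± 65.0 in FSChi and 128.4 ± 36.3 in EpCAM (SD, n = 5 each). It rose by 1.07 ± 0.21 in FSClow (adjusted p = 1.4e-04). Its rise in FSChi, 0.75 ± 0.22 (adjusted p = 0.016), was lost without FSChi replicate 2 or 5 or EpCAM replicate 4, at adjusted p of 0.058, 0.067 and 0.059. The annotated exons of Kcnq1 and Kcnq1ot1 share 121 bases, 2.96% of those of Kcnq1.

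Kcns3, a silent subunit that works only together with other voltage-gated pores, averaged 32.5 ± 10.4 CPM in FSClow (SD, n = 9), compared with 34.8 ± 19.9 in FSChi and 17.6 ± 4.50 in EpCAM (SD, n = 5 each). Its ranges overlapped, and its log2 fold changes of 0.88 (adjusted p = 0.025) and 1.0 (adjusted p = 0.038) each lost their call without any 1 of several libraries. For FSClow those were FSClow replicates 4 and 7 and EpCAM replicates 1, 3 and 5, with adjusted p up to 0.11. For FSChi they were FSClow replicates 4 and 7, FSChi replicates 1, 3, 4 and 5 and EpCAM replicates 1, 2, 3 and 5, with adjusted p up to 0.20.

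**Figure D3:**
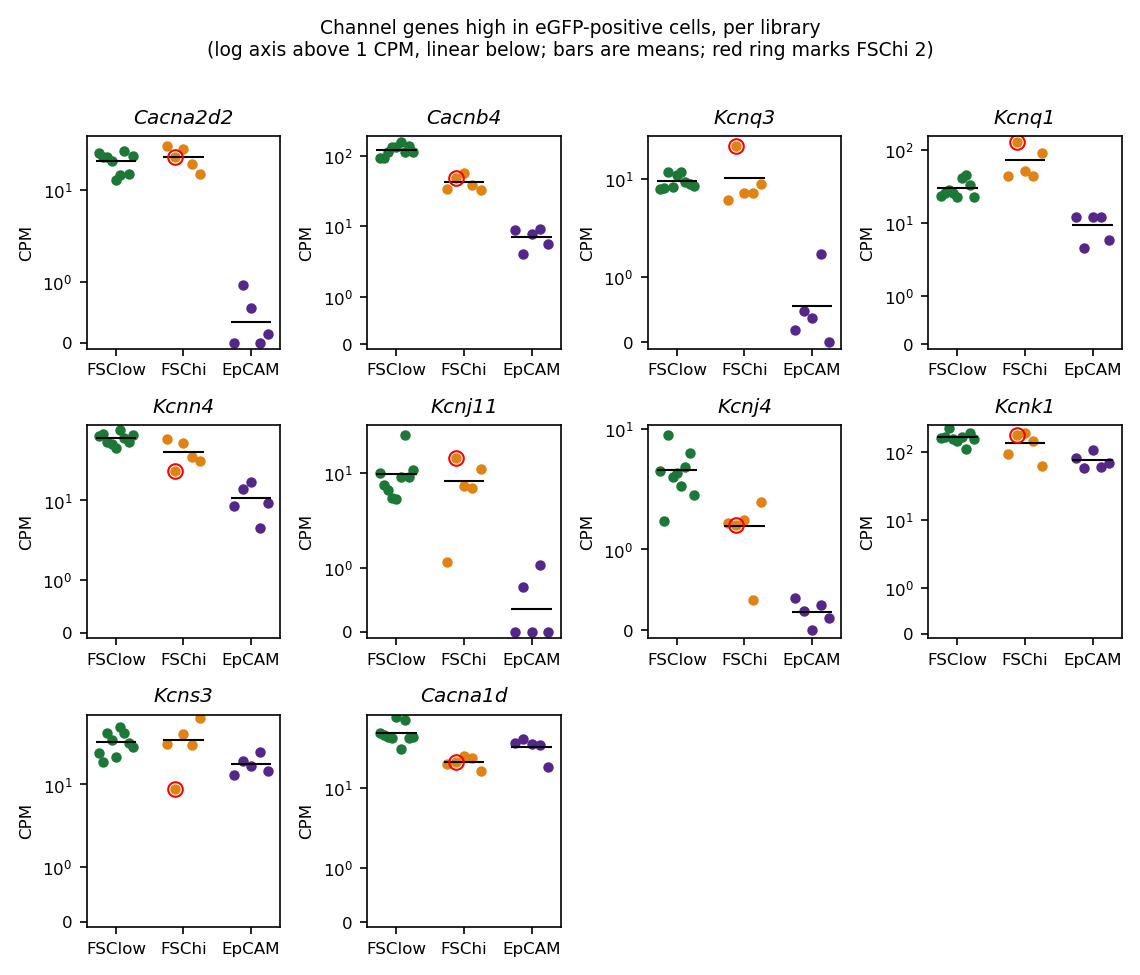
CPM of 9 channel genes higher than EpCAM in both eGFP-positive gates, and of Cacna1d, in each library, on an axis that is logarithmic above 1 CPM and linear below. Points are libraries, bars are means and the red ring marks FSChi replicate 2. Cacna2d2 stays under 1 CPM in all 5 EpCAM libraries and above 10 CPM in every library of both gates.

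The Kcna, Kcnc, Kcng and Kcnh families have 24 members, of which 11 were tested. Of these, 8 were lower in FSClow than in EpCAM, against 23.1% of all tested genes. This grouping is not one of the subfamilies listed at the start. It leaves out Kcnq and Kcns, where members rose. Members near 0 in FSClow passed the filter only through the other groups. Kcna5, the Kv1.5 channel of atrial muscle, and Kcng1, a silent subunit, had no count in any FSClow library. With 3 counts over the 9 libraries as the floor, Kcna5 was at least 64.5-fold higher in EpCAM and at least 9.75-fold higher in FSChi, and Kcng1 at least 42.6-fold and 25.7-fold higher. Kcnc4, a fast Kv3 channel, averaged 0.24 CPM in FSClow, 13.8 in FSChi and 21.8 in EpCAM, and Kcnh4, an ether-a-go-go-like channel, 0.19, 7.94 and 24.9 CPM. Kcnh4 and Kcnc4 fell in FSClow, with log2 fold changes of -6.69 ± 0.60 and -6.65 ± 0.72 (adjusted p = 2.4e-09 and 5.6e-08). Kcnh1, the founding member of the ether-a-go-go family, fell in both gates, with log2 fold changes of -3.6 ± 0.67 in FSClow and -2.84 ± 0.78 in FSChi (adjusted p = 9.1e-05 and 0.0091), and of -3.54 in FSChi without FSChi replicate 5. Of the 17 voltage-gated pores tested, 5 were higher and 9 lower in FSClow, 6 higher and 5 lower in FSChi against EpCAM, and 9 higher and 1 lower in FSChi against FSClow.

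Kcnh7 and Kcnh2 were instead highest in FSChi. Kcnh7, a relative of the cardiac HERG channel, was at 7.05, 32.9, 10.8, 7.28 and 31.5 CPM in FSChi, at 0 to 4.30 CPM in FSClow, and at 2.16, 3.33, 8.24, 2.81 and 2.56 CPM in EpCAM. Kcnh2, HERG itself, was at 6.58, 21.7, 7.53, 7.28 and 14.9 CPM in FSChi, at 1.06 to 9.68 CPM in FSClow, and at 2.55, 2.14, 2.43, 2.96 and 2.41 CPM in EpCAM. For both genes FSChi replicates 2 and 5 were the highest, as for Scn2a and Kcnq1. Kcnh7 exceeded FSClow by 3.46 ± 0.57 and EpCAM by 2.19 ± 0.63 on the log2 scale (adjusted p = 7.2e-05 and 0.012). The second of these was lost without FSChi replicate 5 (adjusted p = 0.058). Kcnh2 exceeded FSClow by 1.67 ± 0.45 and EpCAM by 2.16 ± 0.54 (adjusted p = 0.0088 and 0.0046). Scn2a, Kcnq1, Kcnh2 and Kcnh7 were the 4 members higher in FSChi than in both other groups, and without FSChi replicate 2 all 4 kept both calls. With only the libraries matching their own files, FSChi replicates 1 and 2 remain, and Scn2a and Kcnq1 kept both calls. Kcnh2 then exceeded EpCAM by 2.33 (adjusted p = 0.081) and FSClow by 1.97 (adjusted p = 0.066), and Kcnh7 by 2.04 (adjusted p = 0.19) and 3.62 (adjusted p = 0.0040).

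The partners of voltage-gated potassium channels were lower in FSClow in all 3 tested cases of 12, against 23.1% of all tested genes. All 3 were low in FSClow and passed the filter through the other groups, so this count is no separate support. Kcnab2, a beta subunit related to aldo-keto reductases, was at 16.5, 14.5, 10.6, 11.8 and 12.05 CPM in FSChi, at 18.5, 16.6, 25.5, 31.5 and 14.0 CPM in EpCAM, and at 0.34 to 4.24 CPM in FSClow. FSClow lay below all other libraries. Kcnab2 fell by 3.46 ± 0.36 on the log2 scale in FSClow (adjusted p = 2.5e-08), and FSChi exceeded FSClow by 2.76 ± 0.36 (adjusted p = 5.0e-06). Kcne3, a single-span partner of Kcnq1 in secretory epithelia, was at 25.1, 9.03, 17.6, 29.8 and 7.68 CPM in EpCAM. In FSChi it was counted only in replicates 3 and 4, at 1.07 and 5.79 CPM, and in FSClow only in replicate 6, at 1.21 CPM. Kcne3 fell against EpCAM, with log2 fold changes of -6.68 ± 0.90 in FSClow and -3.46 ± 0.85 in FSChi (adjusted p = 1.4e-06 and 0.0043), which were -9.19 without FSClow replicate 6 and -5.39 without FSChi replicate 4. The rise of FSChi over FSClow, 3.23 ± 1.02 (adjusted p = 0.022), was lost without FSChi replicate 4 (adjusted p = 0.40). FSChi replicates 3 and 4 are the libraries in which ionocyte and microvillar cell markers were highest within FSChi, and their part in the Kcne3 value was not tested.

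Inward rectifiers divided into 3 higher and 4 lower in FSClow, of 8 tested. Kcnj11, the pore Kir6.2 of the ATP-sensitive potassium channel (chr7:46097123-46100952), closes when ATP rises and couples metabolism to membrane potential in the pancreatic beta cell. It was at 5.38 to 24.96 CPM in FSClow with a median of 9.08 CPM, at 1.18, 14.5, 7.39, 6.91 and 10.99 CPM in FSChi, and at 0, 0.71, 0, 1.09 and 0 CPM in EpCAM. Neither gate overlapped EpCAM, although FSChi replicate 1 was close to it. Kcnj11 rose by 4.66 ± 0.75 in FSClow and 4.34 ± 0.78 in FSChi on the log2 scale (adjusted p = 1.6e-05 and 2.2e-04), and by 5.70 and 5.40 without EpCAM replicate 4. Abcc8, the sulfonylurea receptor that assembles with Kcnj11, averaged 22.9 CPM in FSClow, 15.3 CPM in FSChi and 1.63 CPM in EpCAM. It rose by 3.76 ± 0.54 and 3.16 ± 0.56 (adjusted p = 3.0e-06 and 1.7e-04).

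Kcnj4, the strong inward rectifier Kir2.3, was at 1.71 to 8.81 CPM in FSClow with a median of 4.30 CPM, at 1.65, 1.61, 1.75, 0.37 and 2.48 CPM in FSChi, and at 0 to 0.39 CPM in EpCAM. FSChi replicate 4 reached into the EpCAM range. It rose by 4.19 ± 0.63 in FSClow and 2.66 ± 0.68 in FSChi on the log2 scale (adjusted p = 6.9e-06 and 0.0057). The difference between the gates, -1.54 ± 0.53 (adjusted p = 0.036), was lost without any 1 of FSClow replicates 3, 5 and 8, FSChi replicates 1, 2, 3 and 4 and EpCAM replicate 4, with adjusted p of 0.051 to 0.12. Kcnj5, a G protein-gated rectifier, ranged from 4.96 to 77.4 CPM in FSClow and averaged 10.1 CPM in FSChi and 7.15 CPM in EpCAM. Its rise in FSClow of 1.71 ± 0.58 (adjusted p = 0.019) was lost without FSClow replicate 5 or EpCAM replicate 1, 2 or 5, at adjusted p of 0.072, 0.065, 0.054 and 0.052. Kcnj2, the Kir2.1 channel, was called in no comparison.

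The rectifiers of transporting epithelia were low in FSClow. Kcnj16, which pairs with other rectifiers in kidney and brain, was at 74.0, 21.4, 79.4, 90.7 and 21.1 CPM in EpCAM, at 3.29, 2.41, 6.72, 23.0 and 6.38 CPM in FSChi, and at 0 to 2.12 CPM in FSClow. Kcnj15, another epithelial rectifier, was at 17.5 to 43.0 CPM in EpCAM, at 5.17, 2.41, 1.48, 12.9 and 5.32 CPM in FSChi, and at 0 to 1.37 CPM in FSClow. For both, FSChi replicate 4 was the highest of its group. Both fell in FSClow, with log2 fold changes of -7.01 ± 0.66 for Kcnj16 and -5.74 ± 0.51 for Kcnj15 (adjusted p = 9.6e-09 and 2.4e-09), and of -8.0 for Kcnj16 without FSClow replicate 6. Both fell in FSChi against EpCAM, with log2 fold changes of -2.70 ± 0.61 and -2.59 ± 0.51 (adjusted p = 0.0021 and 5.5e-04), and of -3.59 and -3.29 without FSChi replicate 4. Against FSClow, FSChi exceeded by 4.30 ± 0.70 for Kcnj16 and 3.14 ± 0.54 for Kcnj15 (adjusted p = 7.0e-05 and 1.1e-04), by 3.5 and 2.53 without FSChi replicate 4, and by 5.30 for Kcnj16 without FSClow replicate 6. Kcnj1, the renal outer medullary channel, had 1 count over the 9 FSClow libraries, and EpCAM was higher by a ratio of 193.6 with a 95% counting interval of 34.3 to 7687. Kcnj13, a rectifier of transporting epithelia, averaged 2.17 CPM in FSClow, 15.3 in FSChi and 50.9 in EpCAM, and FSChi replicate 1 alone held 48.7 CPM.

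Two-pore channels carry leak currents, and of the 3 tested, 1 was higher and 1 lower in FSClow than in EpCAM. Kcnk1, the leak channel TWIK1 (chr8:125993655-126030685), was at 110.3 to 229.9 CPM in FSClow with a median of 159.1 CPM, at 95.0, 179.2, 191.4, 144.1 and 63.1 CPM in FSChi, and at 82.7, 57.7, 108.7, 60.9 and 69.4 CPM in EpCAM. FSClow lay above EpCAM, and FSChi overlapped both. It rose by 1.12 ± 0.24 on the log2 scale in FSClow (adjusted p = 4.0e-04). The rise in FSChi, 0.82 ± 0.26 (adjusted p = 0.021), was lost without FSChi replicate 2, 3 or 4 or EpCAM replicate 2 or 4, at adjusted p of 0.059, 0.10, 0.055, 0.059 and 0.082. Of its exon bases, 8.01% overlap the antisense transcript Gm45875. Kcnk10, the mechanically gated TREK2, had 3 counts in all of FSClow, and EpCAM was higher by a ratio of 262.9 with a 95% counting interval of 89.6 to 1278. Kcnk5, the acid-sensitive TASK2, was at 10.6 to 37.3 CPM in FSClow and at 0.24, 2.41, 14.9, 10.5 and 4.25 CPM in FSChi. FSChi was below FSClow with a log2 fold change of -1.59 ± 0.52 (adjusted p = 0.027), lost without FSClow replicate 5 or FSChi replicate 2 or 5, at adjusted p of 0.060, 0.058 and 0.072.

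Among calcium-activated channels, Kcnn4, the intermediate-conductance channel of lymphocytes and secretory epithelia (chr7:24369826-24385212), was higher in both gates. It was at 45.5 to 76.2 CPM in FSClow with a median of 60.8 CPM, at 60.2, 23.3, 52.3, 35.7 and 31.5 CPM in FSChi, and at 8.64, 13.8, 17.03, 4.52 and 9.34 CPM in EpCAM. Both gates lay above EpCAM. Kcnn4 rose by 2.51 ± 0.28 in FSClow and 1.95 ± 0.30 in FSChi on the log2 scale (adjusted p = 9.5e-08 and 2.8e-05). Kcnma1, the large-conductance BK pore, averaged 36.4 ± 12.8 CPM in FSClow (SD, n = 9), compared with 36.8 ± 9.82 in FSChi and 45.7 ± 13.6 in EpCAM (SD, n = 5 each) and was called in no comparison. Its partner Kcnmb3 had 1 count over all FSClow libraries, and was at 31.3, 0, 12.5, 6.72 and 17.01 CPM in FSChi and 17.03 to 33.7 CPM in EpCAM. EpCAM exceeded FSClow in Kcnmb3 by a ratio of 682.2 with a 95% counting interval of 122.0 to 26990. Lrrc26, a partner that lets BK channels open without a rise in calcium, averaged 21.3 CPM in FSClow, 58.5 in FSChi and 39.8 in EpCAM, and FSChi exceeded FSClow by 1.48 ± 0.26 on the log2 scale (adjusted p = 2.0e-04).

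The comparison of the 2 eGFP-positive gates was carried by genes that were near 0 in FSClow. Of the 30 members higher in FSChi, 27 were also lower in FSClow than in EpCAM, and 15 of these were lower in FSChi than in EpCAM as well. All 14 olfactory sensory neuron markers, 6 of 7 basal cell markers and 4 of 6 ionocyte and microvillar cell markers were also higher in FSChi than in FSClow, as were 5 of 9 sustentacular cell markers, 3 of 6 tested secretory and gland cell markers, 2 of 6 ciliated cell markers and the 1 tested stromal marker. Tuft and brush cell markers differed between the gates as well: of 13, 2 were higher and 6 lower in FSChi. Gnat3, 1 of the higher, averaged 172.3 CPM in FSClow and 2109 CPM in FSChi. Chat, 1 of the lower, averaged 543.2 and 301.4 CPM. Over all tested genes, 15.5% were higher and 9.30% lower in FSChi. The secretory and gland cell sum was 8042, 646.8, 710.8, 8563 and 12040 CPM in FSChi replicates 1 to 5 and 311.1 to 824.0 CPM in FSClow. The stromal and endothelial sum was 114.3, 4.02, 5.64, 121.9 and 158.4 CPM in FSChi and 0.84 to 13.4 CPM in FSClow. In both sums, FSChi replicates 2 and 3 lay within the FSClow range and the other 3 above it. Much of the secretory sum in FSClow was Sox9, at 270.3 to 673.1 CPM there. It was at 175.8 to 323.3 CPM in FSChi and 14.9 to 39.9 CPM in EpCAM. Sox9 was the 1 tested secretory and gland cell marker lower in FSChi than in FSClow. Overlap in that sum is therefore no measure of like secretory cell content. The part of these cell types in the channel results was not tested. Omp, a defining marker of mature olfactory neurons, was at 0 to 46.4 CPM in FSClow, 1.61 to 1796 CPM in FSChi and 1550 to 2910 CPM in EpCAM. In FSChi replicate 2, 17 of the 30 members had no count and 13 lay above the highest FSClow library. Those 13 were Cacnb3, Kcnab2, Kcnb2, Kcnh2, Kcnh7, Kcnj13, Kcnj15, Kcnj16, Kcnn1, Kcnq1, Scn2a, Scn3a and Scn4b. Among the 17 without a count were Scn9a, Scn3b, Scn8a, Cacna1b, Cacna1h, Kcnmb3 and Kcnk10. In the other 4 FSChi libraries, 1 to 4 of the 30 members lay at or under the highest FSClow library. Among the 5 members lower in FSChi were Kcnk5, Kcnj4, Cacnb4 and Cacna1d, and without FSChi replicate 2 the calls of Cacnb4 and Cacna1d were kept. Kcnk5 and Kcnj4 then had log2 fold changes of -1.44 and -1.55 (adjusted p = 0.058 and 0.051), close to those with it.

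**Figure D4:**
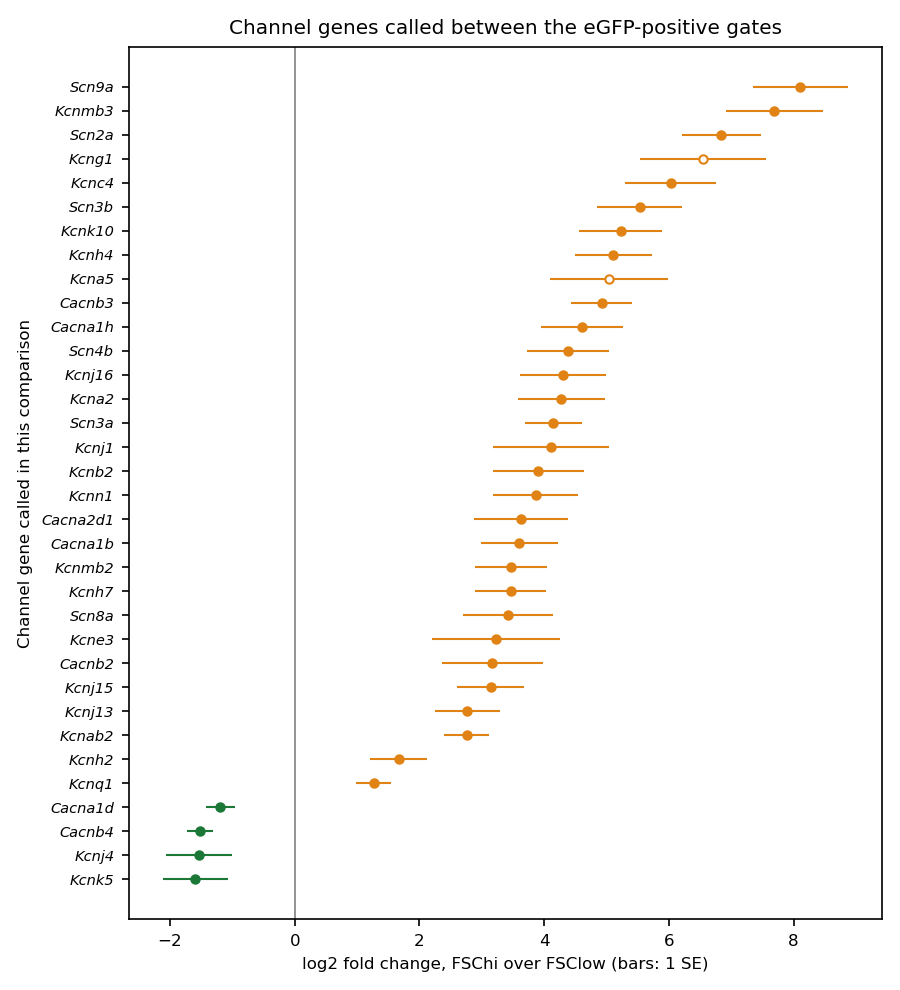
Log2 fold change of FSChi over FSClow for 34 of the 35 channel genes called in that comparison, with bars of 1 standard error. Open circles mark Kcng1 and Kcna5, which had no count in FSClow, so that their fitted value is no measure of size. Scn9a stands at 8.11 and Kcnk5 at -1.59.

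Scaled to gene length, the order of the channel genes differed by group. In CPM per kb of transcript, Kcnk1 was highest in FSClow at 71.6 ± 14.3 (SD, n = 9), followed by Kcnn4 at 30.9 ± 4.94 and Cacnb4 at 15.3 ± 2.71. The first 3 lie further apart than their SDs, and the next ones, Kcns3, Kcnq1 and Kcnma1 at 11.2, 10.2 and 9.89, do not. In FSChi, Kcnk1 was at 58.5 ± 23.8 (SD, n = 5), Kcnq1 at 24.9 ± 13.0, Kcnn4 at 20.8 ± 7.78 and Cacnb3 at 19.95 ± 10.6, and the last 3 were within their spread. In EpCAM, Kcnj13 at 40.1 ± 13.7, Cacnb3 at 39.5 ± 6.35, Scn9a at 34.8 ± 4.78 and Kcnk1 at 33.0 ± 9.01 were within their spread too. Kcnj11 carries a reference length of 1173 bases, the length of its coding sequence alone, so its value per kb is too high to be ordered with the others.

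**Figure D5:**
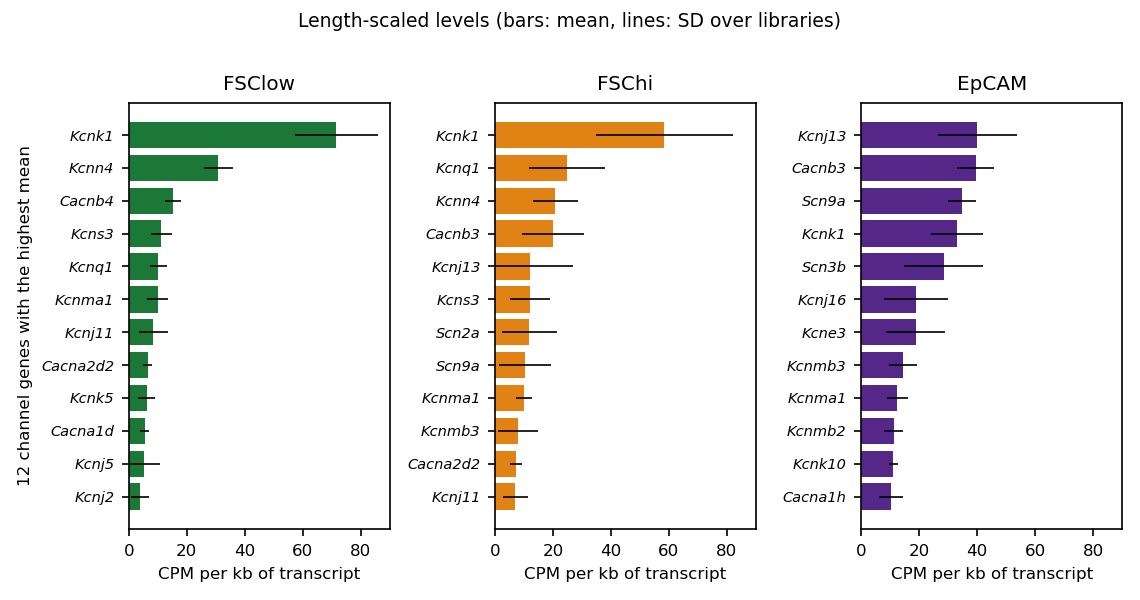
The 12 channel genes shown with the highest mean CPM per kb of transcript in FSClow, FSChi and EpCAM, with bars for means and lines for the SD over 9, 5 and 5 libraries. Kcnk1 leads both eGFP-positive gates at 71.6 and 58.5 CPM per kb, and Kcnj13 leads EpCAM at 40.1 CPM per kb.

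Genes that work beside these channels were counted from lists chosen with earlier results of these data known. Of 31 listed channel partners, 15 were tested: 3 were higher and 8 lower in FSClow, 2 higher and 4 lower in FSChi against EpCAM, and 5 higher and 2 lower in FSChi against FSClow. These are 20% higher and 53.3% lower, 13.3% and 26.7%, and 33.3% and 13.3% of the 15, to be read against the shares of all tested genes given above. The shares higher than EpCAM were near that background in both gates. Besides Abcc8, Cachd1, an alpha2delta-like protein, rose in both gates, by 1.96 ± 0.26 and 0.91 ± 0.28 on the log2 scale (adjusted p = 1.3e-06 and 0.019). Of 19 genes for calcium release and other cation or chloride channels, 17 were tested: 5 were higher and 7 lower in FSClow, 5 higher and 4 lower in FSChi against EpCAM, which is 29.4% higher and 41.2% lower, and 29.4% and 23.5%, of the 17. Itpr2, a receptor that releases calcium from stores, averaged 336.3 CPM in FSClow, 127.6 in FSChi and 19.1 in EpCAM, and rose by 4.14 ± 0.25 and 2.74 ± 0.24 (adjusted p = 4.9e-12 and 7.3e-09). Itpr3, the isoform of taste cells, averaged 9.54, 67.0 and 30.8 CPM, so it was lower than EpCAM in FSClow and higher in FSChi, with log2 fold changes of -1.68 ± 0.34 and 1.10 ± 0.38 (adjusted p = 2.1e-04 and 0.035). Orai3, a pore of store-operated calcium entry, rose by 1.35 ± 0.19 and 1.62 ± 0.21 (adjusted p = 3.1e-06 and 3.2e-06).

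Promoter sequences of RefSeq (GRCm38.p6), from 250 bases before to 50 after each start, were available for 104 channel genes with 140 promoters. The octamer ATGCAAAT, bound by POU factors, was present on either strand in 1 of these 140 and in 1.74% of 32851 promoters. It was in none of the 10 promoters found for 7 of the members higher in both gates, and none of the 19 found for 14 of those lower in both.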

How the data were processed

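The authors' deposited count table gave whole read counts per gene for 19 libraries. Their deposited normalized table, used to list the members, holds a signal that equals counts divided by size factors: 100% of values came out whole within 0.01 reads. The single-library files hold expected counts and TPM deposited by the authors. The build mm10 and, without their roles, the tools RSEM 1.2.21, DESeq2, featureCounts, Picard 1.1073 and STAR 2.4.2a are named per the submitters' processing notes. Strand use in counting is not given in the sources used here. Counts of all 142 members were equal in both tables.

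All 27179 genes were fitted with edgeR 4.0.16 in R 4.3.3 (TMM scaling, filterByExpr by group, robust quasi-likelihood test, all 19 libraries, group as the only term). Benjamini-Hochberg adjustment ran over 13340 tested genes, and genes were called at an adjusted p below 0.05. Values after ± beside a log2 fold change are standard errors. CPM used TMM-scaled library sizes, and CPM per kb used the RSEM gene length. Floors of 3 counts and 95% exact intervals cover counting error only. The test was tried on simulated data. Genes were named by size: up to 10 rises and 10 falls per comparison, the highest member of each subfamily, and Scn9a. Of the tested members, 3 are not reported here. Other members were named after their values were seen. Members and lists were chosen with earlier results of these data known. Alternatives used relative log expression scaling, DESeq2 1.42.0, other filters, the RSEM expected counts rounded to whole numbers, fewer libraries and a replicate block.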

Additional observations from a re-analysis of the deposited data

Results flagged for a closer look

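Of 103 sets of group values for the named genes, 12 held a library far from the rest of its group by Dixon's test. The nominal rate of that test, about 1 in 20, holds for normally distributed values, which CPM near 0 are not. Whether 12 exceeds chance was therefore not settled. FSChi replicate 2 was that library for 6 of them. It stood at 0 CPM for Scn9a (36.8 to 132.6 CPM in the other FSChi libraries), Scn3b (11.6 to 27.5 CPM), Kcnh4 (5.64 to 13.6 CPM) and Kcna5 (0.94 to 1.49 CPM). It was also low for Kcnj5, at 3.21 CPM against 10.6 to 13.6 CPM, and high for Kcnq3, at 21.7 CPM against 6.11 to 8.86 CPM. FSChi replicate 4 was low for Kcnj4, at 0.37 CPM against 1.61 to 2.48 CPM.

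Within FSClow, replicate 5 was high for Cacna2d1, at 3.23 CPM against 0 to 0.50 CPM, replicate 6 for Kcnj16, at 2.12 CPM against 0 to 0.57 CPM, and replicate 7 for Kcnj11, at 24.96 CPM against 5.38 to 10.9 CPM. Within EpCAM, replicate 5 was low for Cacna1d, at 17.9 CPM against 33.8 to 40.2 CPM, and replicate 3 for Kcnh1, at 8.23 CPM against 13.55 to 16.1 CPM.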

How the results depend on the processing

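FSClow against EpCAM counted 60 lower members with no filter on low counts, against 34. Over all genes, 7749 of 24209 were then called in either direction, against 6017 of 13340. The single-library file numbered FSChi 3 held only 6807 expected counts in all and entered the fit on expected counts. FSChi against EpCAM counted 9 higher with the RSEM expected counts and 9 with only the libraries matching their own file, against 14, and 6 lower with the latter, against 19. FSChi against FSClow counted 10 higher when only the 2 groups compared were fitted, against 30, with 30 members left to test. Over all genes, that fit called 2106 of 11556 in either direction, against 3310 of 13340. FSChi against FSClow counted 3 lower, against 5, with only matching libraries, with the replicate block and with numbers 1 to 5 without it. Leaving out 1 library at a time gave 11 to 15 higher and 33 to 39 lower in FSClow against EpCAM, 11 to 14 higher and 14 to 22 lower in FSChi against EpCAM, and 30 to 37 higher and 3 to 5 lower in FSChi against FSClow. With only matching libraries, Kcne3 and Kcnj1 reversed in FSChi against FSClow, with fitted log2 fold changes of -2.36 and -1.02. The 2 FSChi libraries left had no count of either gene, and FSClow had counts in 1 library each, so these are no measure of size or direction. Same-numbered libraries did not deviate together in every pair (correlations from -0.19 to 0.40). Columns 3, 4 and 5 of FSChi and 1 and 2 of EpCAM did not match the files of their number. The check therefore cannot tell whether the numbers pair libraries. With the replicate block, counts were 11 and 36, 13 and 20, and 26 and 3. Over the named genes, 2875 alternative values kept their side of the threshold, 103 lost a call, 14 gained one and 2 reversed. A change of direction where neither value was called counted among the 2875. Genes under about 1 CPM rest on few counts per library.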
